A study of Mus musculus with 23 samples.

Results

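Transcripts of 10 genes of the heart muscle cell, the cardiomyocyte, were followed through sequencing libraries of sorted cardiac macrophages. The genes were Myh6, Actc1, Tnnt2, Tnni3, Myl2, Myl3, Ttn, Ryr2, Nppa and Mb, taken by gene name as 10 rows of a count table of 54532 genes. No threshold on their measured values was used, but earlier results of these data were known when they were chosen. All 10 passed the filter on low counts, which a gene can pass through its baseline libraries alone. The libraries were made from poly(A) RNA of cells from C57BL/6 hearts, sorted with magnetic beads for absence of the neutrophil antigen Ly6G and then for the myeloid antigen CD11b.

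MyS7KO mice (Smad7 fl/fl + LyzM-Cre) carried loxP sites in both copies of Smad7, which encodes an inhibitor of TGF-beta signalling, and Cre recombinase driven by lysozyme M, a promoter active in macrophages, monocytes and neutrophils. S7fl/fl mice (Smad7 fl/fl) carried the loxP sites without Cre. There were 3 MyS7KO and 3 S7fl/fl libraries from hearts at baseline, 5 MyS7KO and 5 S7fl/fl libraries at 3 days of coronary occlusion, and 4 MyS7KO and 3 S7fl/fl libraries at 7 days. The labels do not give the age of the mice, whether Cre marks other cells in these hearts, or whether each library came from a separate heart, so p-values measure the spread between these libraries.

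Cardiomyocytes contract by sliding thick filaments of myosin along thin filaments of actin, with titin as the spring that holds them in register. Calcium released from the sarcoplasmic reticulum binds the troponin complex and so switches contraction on. The cells express cardiac forms of these proteins at very high levels, and macrophages are not known as a source of them. When coronary flow stops for good, cardiomyocytes downstream die and leukocytes enter the wall.

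Library totals ran from 15.5M to 23.9M counts. Lyz2, whose locus carries Cre in LyzM-Cre mice, averaged 2850 ± 459 CPM in MyS7KO and 5320 ± 368 CPM in S7fl/fl libraries at baseline (SD, n = 3 each), where CPM is the count scaled to a common library size with TMM factors. Smad7 averaged 38 ± 15.9 CPM in MyS7KO and 56.4 ± 4.25 CPM in S7fl/fl libraries at baseline (SD, n = 3 each), 14.6 ± 3.98 and 34.7 ± 4.42 CPM at day 3 (SD, n = 5 each), and 23.4 ± 7.66 (SD, n = 4) and 62.5 ± 6.76 CPM (SD, n = 3) at day 7. The 10 macrophage markers, led by Lyz2 and the complement gene C1qb, summed to 11300 to 23700 CPM, so the libraries carried the markers of the labelled cell type. Day 7 libraries of MyS7KO (4 of 4) expressed Xist, the RNA of the inactive X chromosome, while Y-linked genes were expressed in 3 of 3 from S7fl/fl, and an effect of sex there cannot be told apart from one of genotype. At baseline and at day 3 each genotype had libraries of either kind. Comparisons of day 7 with baseline or day 3 are therefore unbalanced in sex, in opposite directions in the 2 genotypes. The part of sex in them was not tested. S7fl/fl day 3 replicate 4 held both signals, the minor one at 7.01% of its highest level in any library, and MyS7KO day 3 replicates 3 and 2 held 1.87 and 1.77%. Without these 3 libraries, or without the first alone, Tnni3 was no longer called at day 7 against baseline in MyS7KO (4 members called), and the effect on day 7 against day 3 is given there.

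In GRCm38, the build of the deposited tables, Myh6 lies at chr14:54941921-54966927, Myl2 at chr5:122100951-122113472 and Myl3 at chr9:110741861-110769798. Ttn lies at chr2:76703980-76982547, Actc1 at chr2:114047282-114053548, Tnnt2 at chr1:135836354-135852260 and Tnni3 at chr7:4518305-4524229. Ryr2 lies at chr13:11553102-12106945, Nppa at chr4:148000722-148002079 and Mb at chr15:77015487-77050670. Values are counts over each whole gene.

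The region just upstream of a gene's start holds the elements through which muscle factors act. Actc1, Myl3, Tnnt2 and Ttn are shown with the 250 bases before their RefSeq start (build GRCm38.p6). Each holds a muscle element, and so does Myh6, which is not shown. Actc1 (chr2:114052876-114053125, minus strand) holds a CArG box, the site of serum response factor, at -47 to -38 from the start. Myl3 (chr9:110763428-110763677, plus strand) holds a CArG box at -85 to -76 and the M-CAT element CATTCCT at -149 to -143. Tnnt2 (chr1:135836084-135836333, plus strand) holds CATTCCT at -27 to -21 and, on the other strand, the GATA site AGATAA at -166 to -161; the M-CAT element was first described in the chicken gene. Ttn (chr2:76982548-76982797, minus strand) holds a MEF2 site, named for a muscle transcription factor, at -166 to -157. Capitals mark these elements, and the sequences run 5′ to 3′ on the gene's strand:
Actc1: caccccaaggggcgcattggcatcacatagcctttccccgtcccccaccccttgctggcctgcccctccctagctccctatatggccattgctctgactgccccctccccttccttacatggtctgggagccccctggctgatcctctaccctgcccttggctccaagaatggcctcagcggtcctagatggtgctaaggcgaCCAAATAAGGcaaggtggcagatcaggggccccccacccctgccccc
Myl3: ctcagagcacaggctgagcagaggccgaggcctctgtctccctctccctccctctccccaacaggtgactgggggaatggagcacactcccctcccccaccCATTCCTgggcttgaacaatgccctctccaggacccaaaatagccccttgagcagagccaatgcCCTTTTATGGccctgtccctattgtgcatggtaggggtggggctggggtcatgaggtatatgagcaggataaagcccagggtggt
Tnnt2: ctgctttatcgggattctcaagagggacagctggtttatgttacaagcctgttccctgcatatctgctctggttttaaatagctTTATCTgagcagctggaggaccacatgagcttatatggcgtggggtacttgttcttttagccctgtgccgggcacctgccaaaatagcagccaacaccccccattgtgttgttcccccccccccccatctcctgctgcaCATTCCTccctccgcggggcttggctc
Ttn: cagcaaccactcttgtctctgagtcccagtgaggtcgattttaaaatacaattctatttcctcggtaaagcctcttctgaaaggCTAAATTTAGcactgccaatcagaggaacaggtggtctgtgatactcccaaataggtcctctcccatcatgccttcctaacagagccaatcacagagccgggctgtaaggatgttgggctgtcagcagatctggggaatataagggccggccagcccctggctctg

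Both strands were searched, and no marked element overlaps another. A CArG box was found before 2 of the 10 genes and in 1.47% of 32851 RefSeq promoters of the same length. MEF2 sites were found before 1 of the 10 and in 2.92%, and CATTCCT before 3 (also Myh6) and in 4.51%. The TATA box letters TATAAA were found before 2 of the 10 (Myl2 and Nppa) and in 12.4% of promoters, and AGATAA before 1 and in 9.99%. The TATAAA match of Myl2 lay at -216 to -211 on the other strand, and that of Nppa at -9 to -4. The RefSeq start used for Myl2 lies 7762 bases from its start in the deposited annotation. The RefSeq start of Actc1 lies 673 bases and that of Myl3 21817 bases from the gene's start in the deposited table's annotation, and those of Tnnt2 and Ttn lie 20 and 0 bases from it. A match of letters is not evidence that a factor binds there in these cells.

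The 10 genes together were a trace of each library, and that trace was largest in hearts at baseline. Their summed level was 75.1, 99.7 and 80.9 CPM in MyS7KO and 97.8, 119 and 88.1 CPM in S7fl/fl libraries at baseline. At day 3 it was 30.3, 15.9, 35.5, 18.9 and 23 CPM in MyS7KO and 20, 16.9, 14.6, 12.8 and 29.1 CPM in S7fl/fl libraries. By day 7 the sums were 35.8, 16.7, 76.3 and 36.4 CPM in MyS7KO (replicates 1, 3, 4 and 5) and 60.6, 20.5 and 17.7 CPM in S7fl/fl libraries (replicates 2, 3 and 4). Every day 3 library lay below every baseline library. The day 7 libraries were uneven: MyS7KO replicate 4 lay within the range of MyS7KO baseline libraries, and S7fl/fl replicate 2 stood above the other S7fl/fl libraries after infarction. Group means were 85.2 ± 12.9 and 102 ± 15.8 CPM for MyS7KO and S7fl/fl at baseline (SD, n = 3 each), 24.7 ± 8.09 and 18.7 ± 6.42 CPM at day 3 (SD, n = 5 each), and 41.3 ± 25.1 (SD, n = 4) and 32.9 ± 24 CPM (SD, n = 3) at day 7.

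**Figure D1:**
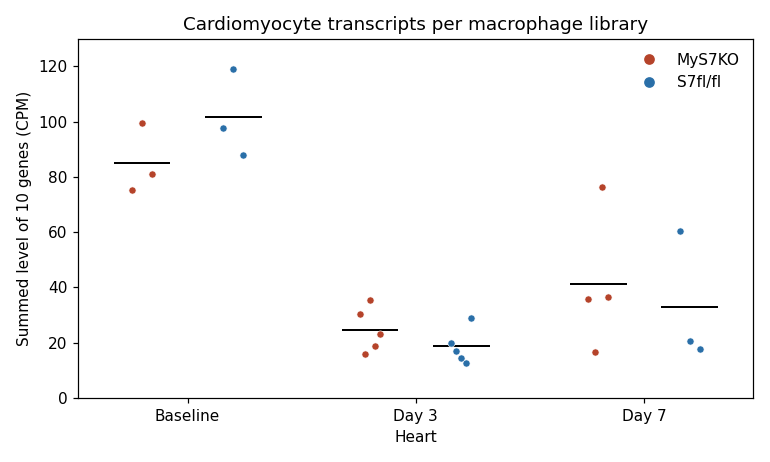
Each point is 1 library, its height the summed level of the 10 cardiomyocyte genes in CPM, by genotype and time, with a bar at the group mean. The 6 baseline libraries sit between 75.1 and 119 CPM and the 10 day 3 libraries between 12.8 and 35.5 CPM, while day 7 libraries spread from 16.7 to 76.3 CPM.

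In raw counts the 10 genes held 201 counts in the poorest library (S7fl/fl day 3 replicate 4), which is 0.00116% of its counts (95% Wilson interval 0.00101 to 0.00133%). The richest library (S7fl/fl baseline replicate 2) had 0.0127% (95% Wilson interval 0.0122 to 0.0133%). These intervals cover counting error only, since duplicate PCR reads are not separate molecules. In bulk RNA, fewer cardiomyocytes or fragments of them and less RNA from each cannot be told apart.

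The authors' FPKM scale by the gene length of the deposited annotation, 7752 bases for Tnnt2 and 1950 for Myl2. The order below depends on that length and is not an order per transcript. At baseline it was led by Tnni3 (6.6 mean FPKM over 6 libraries), Myl2 (6.51), Actc1 (5.27) and Mb (4.97), whose ranges over libraries overlap. Myh6 (2.87), Nppa (2.69), Myl3 (2.54) and Tnnt2 (2.02) followed, again with overlapping ranges. The genes of greatest annotated length stood lowest, Ryr2 at 0.145 and Ttn at 0.034 mean FPKM over the same 6 libraries. At day 3 the mean over 10 libraries was 1.26 FPKM for Tnni3, 1.72 for Myl2, 1.88 for Actc1, 1.34 for Mb and 0.32 for Myh6.

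The first question was how the level differed between hearts after infarction and hearts at baseline. At day 3, 9 of the 10 genes fell in MyS7KO libraries (all but Nppa) by edgeR's quasi-likelihood test at an adjusted p under 0.05, where 35.2% of the 16545 genes tested were called lower and 65.9% in either direction. In S7fl/fl libraries all 10 fell, where 34.1% of all genes were called lower and 64% in either direction. The median fitted log2 change of the 10 was -1.61 in MyS7KO and -2.20 in S7fl/fl, beside -0.10 and -0.06 over all genes tested. By day 7, 5 of the 10 were lower than at baseline in MyS7KO (Myh6, Tnni3, Myl3, Ryr2 and Mb), where 21.8% of all genes were called lower and 44% in either direction. In S7fl/fl 8 were lower (all but Actc1 and Tnnt2), where 25.4% of all genes were called lower, 24.8% higher and 50.2% in either direction. The medians were -1.08 and -1.67, beside -0.01 and -0.02 over all genes. The same baseline libraries serve both days within a genotype, so the days are not independent of each other.

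**Figure D2:**
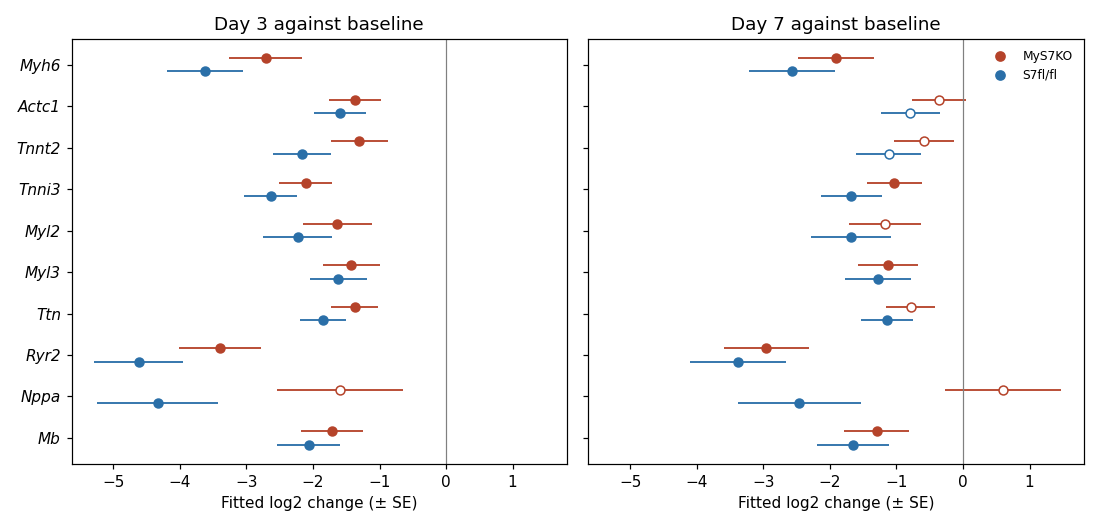
Points show the fitted log2 change of each gene from baseline to day 3 (left) and day 7 (right), with bars for the standard error. Filled points passed an adjusted p under 0.05 and open ones did not. Every day 3 value is below 0, with Ryr2 farthest from it, and Nppa in MyS7KO at day 7 is the one value above 0.

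Thick filament genes come first. Myh6, the alpha myosin heavy chain that drives contraction in the adult mouse heart, read 13.5, 26.9 and 11.6 CPM in MyS7KO and 25.6, 24.7 and 14.3 CPM in S7fl/fl libraries at baseline. At day 3 it read 3.68, 2.44, 3.82, 1.37 and 1.8 CPM in MyS7KO and 2.22, 1.55, 1.07, 0.761 and 2.97 CPM in S7fl/fl libraries. By day 7 the values were 4.26, 2.11, 9.78 and 2.32 CPM in MyS7KO and 7.66, 1.89 and 1.23 CPM in S7fl/fl libraries. All 17 libraries after infarction lay below all 6 at baseline for this gene. Its fitted log2 change at day 3 was -2.71 ± 0.55 in MyS7KO and -3.62 ± 0.57 in S7fl/fl (SE, edgeR adjusted p = 0.000289 and 2.18e-05), and at day 7 it was -1.91 ± 0.58 and -2.57 ± 0.65 (SE, edgeR adjusted p = 0.0117 and 0.00287). Without MyS7KO baseline replicate 2 the day 7 call in MyS7KO ended (edgeR adjusted p = 0.0836).

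Myl2 and Myl3 encode the regulatory and essential light chains of ventricular myosin. Myl2 lay between 10.5 and 17.5 CPM in baseline libraries of both genotypes and between 1.46 and 6.2 CPM in day 3 libraries, with no overlap. It fell 3.10-fold at day 3 in MyS7KO and 4.70-fold in S7fl/fl libraries (edgeR adjusted p = 0.00931 and 0.00104). At day 7 it fell in S7fl/fl (3.21-fold, edgeR adjusted p = 0.0255) and had a log2 change of -1.17 ± 0.54 in MyS7KO that did not pass (SE, edgeR adjusted p = 0.088). Myl3 fell 2.69-fold in MyS7KO and 3.07-fold in S7fl/fl libraries at day 3 (edgeR adjusted p = 0.00573 and 0.00246), and 2.19-fold and 2.42-fold at day 7 (edgeR adjusted p = 0.0451 and 0.0353). Pth1r, a hormone receptor gene that overlaps Myl3 on the opposite strand, held up to 156 counts in a library, and strandedness of the counting is not given in the sources used here, so reads of the pair cannot be told apart.

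Titin, encoded by Ttn, spans from the Z-disc to the M-band. Ttn read 3.77, 4.25 and 2.73 CPM in MyS7KO and 4.92, 5.04 and 3.29 CPM in S7fl/fl libraries at baseline. At day 3 its highest value was 2.24 CPM, in MyS7KO replicate 4, and its lowest 0.444 CPM, in S7fl/fl replicate 4, a library of mixed sex signal. It fell 2.59-fold in MyS7KO and 3.60-fold in S7fl/fl libraries (edgeR adjusted p = 0.00162 and 8.59e-05). At day 7 S7fl/fl libraries lay at 2.12, 1.95 and 1.89 CPM, 2.21-fold lower than at baseline (edgeR adjusted p = 0.0189), a narrow range where the other members varied widely.

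In the thin filament, Actc1, the cardiac alpha-actin, read 8.46, 9.32 and 8.18 CPM in MyS7KO and 7.97, 9.45 and 8.04 CPM in S7fl/fl libraries at baseline, the tightest baseline values of the 10 genes in MyS7KO after Myl2. The day 3 values were 4.72, 1.91, 4.29, 2.24 and 3.54 CPM in MyS7KO and 3.11, 2.07, 2.69, 1.90 and 4.17 CPM in S7fl/fl libraries. By day 7 it read 5.55, 2.62, 12.8 and 5.89 CPM in MyS7KO and 8.42, 3.05 and 3.18 CPM in S7fl/fl libraries. MyS7KO day 7 replicate 4 was the highest of all 23 libraries for this gene, above every baseline library. Actc1 fell 2.59-fold in MyS7KO and 3.02-fold in S7fl/fl libraries at day 3 (edgeR adjusted p = 0.0041 and 0.00136), and at day 7 its log2 changes of -0.36 ± 0.41 and -0.79 ± 0.44 did not pass (SE, edgeR adjusted p = 0.487 and 0.143).

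Tnnt2 encodes troponin T, which ties the troponin complex to tropomyosin. It averaged 5.78 ± 1.59 CPM in MyS7KO day 3 libraries (SD, n = 5), against 14.3 ± 2.74 CPM at baseline (SD, n = 3), and 3.81 ± 1.67 CPM in S7fl/fl day 3 libraries (SD, n = 5), against 17.2 ± 3.42 CPM at baseline (SD, n = 3). These were falls of 2.47-fold and 4.48-fold (edgeR adjusted p = 0.0113 and 0.000222), and the MyS7KO one ended without MyS7KO baseline replicate 2 (edgeR adjusted p = 0.0516). At day 7 the values ran from 4.34 to 15.6 CPM in MyS7KO and from 3.34 to 15.2 CPM in S7fl/fl libraries, overlapping baseline in both genotypes. The day 7 changes did not pass (log2 -0.58 ± 0.45 and -1.12 ± 0.48, SE, edgeR adjusted p = 0.3 and 0.0616).

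Tnni3, the inhibitory troponin I of the heart, read 8.87, 10.5 and 15.9 CPM in MyS7KO and 11.8, 18.6 and 16.6 CPM in S7fl/fl libraries at baseline. Day 3 libraries held 2.78, 2.04, 4.35, 1.43 and 3 CPM in MyS7KO and 2.37, 1.75, 2.55, 2.09 and 3.77 CPM in S7fl/fl libraries. By day 7 it stood at 4.88, 1.73, 9.84 and 6.49 CPM in MyS7KO and 7.82, 3.54 and 3.29 CPM in S7fl/fl libraries. Its S7fl/fl groups did not overlap baseline at either day, and its MyS7KO day 7 group did, through replicate 4. Tnni3 fell 4.32-fold in MyS7KO and 6.22-fold in S7fl/fl libraries at day 3 (edgeR adjusted p = 0.000107 and 9.24e-06), and 2.04-fold and 3.20-fold at day 7 (edgeR adjusted p = 0.0479 and 0.00428). Dnaaf3, a dynein assembly gene on the same strand, overlaps Tnni3 and held up to 226 counts in a library.

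The ryanodine receptor gene Ryr2, whose product releases calcium from the sarcoplasmic reticulum, had the largest fitted fall at both days in both genotypes. It held 87, 96 and 38 counts in MyS7KO and 121, 80 and 95 counts in S7fl/fl libraries at baseline. At day 3 it held 2, 9, 13, 4 and 5 counts in MyS7KO and 4, 3, 2, 1 and 5 counts in S7fl/fl libraries. By day 7 it held 8, 1, 16 and 10 counts in MyS7KO and 21, 2 and 0 counts in S7fl/fl libraries. No library after infarction reached the level of any baseline library of its genotype. Levels were 0.364 ± 0.254 CPM in MyS7KO at day 3 (SD, n = 5) and 0.487 ± 0.355 CPM at day 7 (SD, n = 4), against 3.87 ± 1.76 CPM at baseline (SD, n = 3). In S7fl/fl they were 0.175 ± 0.0825 CPM at day 3 (SD, n = 5) and 0.421 ± 0.626 CPM at day 7 (SD, n = 3), against 4.53 ± 0.468 CPM at baseline (SD, n = 3). Because single libraries held 3 counts or fewer, the ratio was taken from counts summed over a group: 10.7-fold lower at day 3 in MyS7KO (exact 95% interval 7.37 to 15.9) and 25.3-fold lower in S7fl/fl (15.1 to 45.8), and at day 7 7.69-fold lower in MyS7KO (5.37 to 11.3) and 10.4-fold lower in S7fl/fl (6.8 to 16.7). These intervals cover counting error and not the spread between libraries. All 4 comparisons passed (edgeR adjusted p = 5.04e-05, 3.76e-06, 0.000781 and 0.000539), also without any single library. The fitted log2 change at day 7 in S7fl/fl was -3.38, and -6.11 without S7fl/fl day 7 replicate 2, the library with 21 counts.

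Mb encodes myoglobin, the oxygen store of heart muscle. It lay between 6.16 and 9.50 CPM in baseline libraries of both genotypes, between 1.08 and 3.46 CPM at day 3 and between 0.891 and 5.05 CPM at day 7, with no overlap between baseline and either day. Mb fell 3.28-fold in MyS7KO and 4.18-fold in S7fl/fl libraries at day 3 (edgeR adjusted p = 0.00289 and 0.00068), and 2.46-fold and 3.15-fold at day 7 (edgeR adjusted p = 0.0363 and 0.0147).

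Nppa encodes atrial natriuretic peptide, a hormone stored in atrial muscle and re-expressed in stressed ventricles. It was the most uneven member. At baseline it held 9, 34 and 7 counts in MyS7KO and 190, 49 and 17 counts in S7fl/fl libraries. At day 3 it held 6, 3, 3, 9 and 5 counts in MyS7KO and 0, 8, 2, 1 and 4 counts in S7fl/fl libraries. By day 7 it held 5, 4, 66 and 19 counts in MyS7KO and 14, 15 and 7 counts in S7fl/fl libraries. The 190 counts of S7fl/fl baseline replicate 1 and the 66 of MyS7KO day 7 replicate 4 stand above all other libraries. Over summed counts it was 21.9-fold lower at day 3 in S7fl/fl (exact 95% interval 13 to 39.7, edgeR adjusted p = 0.000333) and 3.06-fold lower in MyS7KO, where the test did not pass (1.87 to 5.12, edgeR adjusted p = 0.142). The fitted S7fl/fl log2 change at day 3 was -4.33 ± 0.91 (SE), and -3.14 without S7fl/fl baseline replicate 1 and -5.11 without S7fl/fl day 3 replicate 2 (edgeR adjusted p = 0.00727 at most). The S7fl/fl day 7 call (log2 -2.46 ± 0.93, SE, edgeR adjusted p = 0.0326) ended without S7fl/fl baseline replicate 1 (log2 -1.26, edgeR adjusted p = 0.292).

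**Figure D3:**
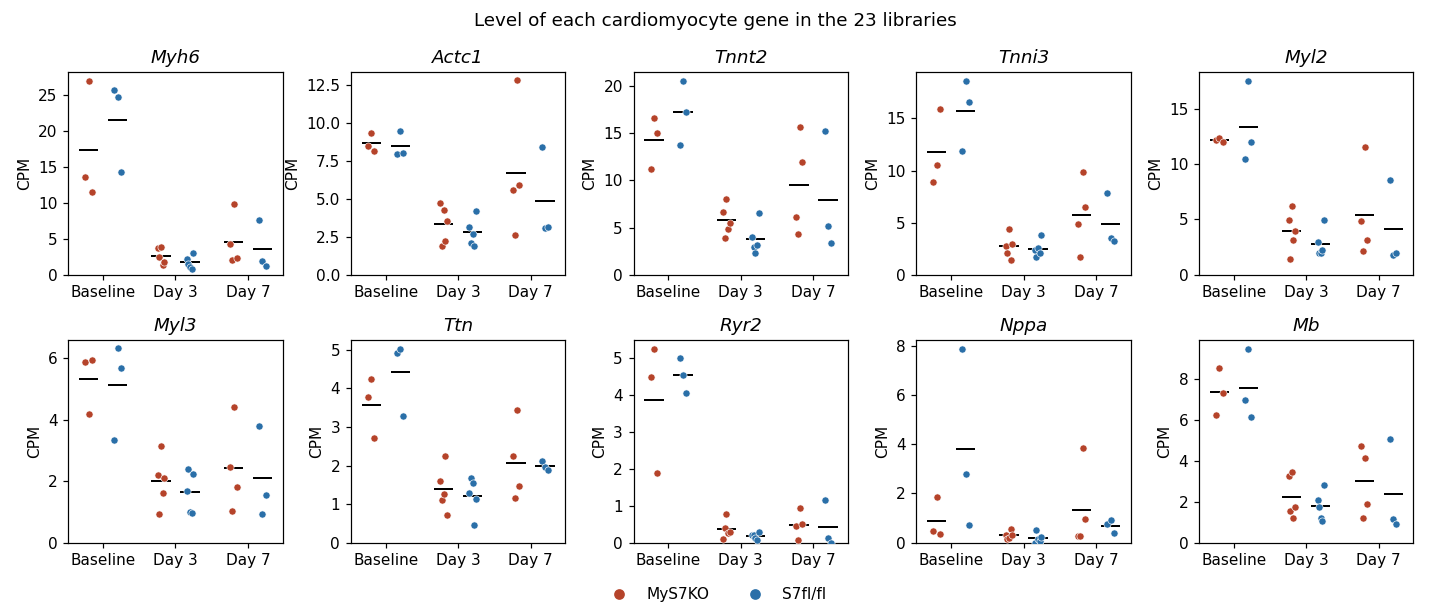
Each panel shows 1 gene, each point 1 library in CPM on a linear axis from 0, and each bar a group mean. Within a genotype, day 3 points lie under the baseline points for every gene except Nppa in MyS7KO. How many of all genes separate in this way was not counted. At day 3, 35.2% of all genes in MyS7KO and 34.1% in S7fl/fl were called lower. Single day 7 libraries stand high, MyS7KO replicate 4 among them for Actc1 at 12.8 CPM.

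Day 7 was next set against day 3. In MyS7KO libraries 3 of the 10 genes were higher at day 7 (Actc1, Tnni3 and Nppa), where 20.5% of all genes were called higher and 39.6% in either direction. Actc1 rose 2.01-fold and Tnni3 2.12-fold (edgeR adjusted p = 0.0339 and 0.03), and Nppa had a log2 change of 2.19 ± 0.86 (SE, edgeR adjusted p = 0.0476). These 3 calls rested on single libraries: 2 members were called without S7fl/fl day 3 replicate 4, and 0 members were called without MyS7KO day 7 replicate 4, without MyS7KO day 3 replicate 2, or without the 3 libraries of minor sex signal over 1%, and 1 was called without MyS7KO day 3 replicate 4 or 5 or MyS7KO day 7 replicate 5. In S7fl/fl libraries no member was called by edgeR (of all genes 11.5% were called higher, 10.1% lower and 21.7% in either direction). Tnnt2 (log2 1.04, edgeR adjusted p = 0.103) and Tnni3 (log2 0.96, edgeR adjusted p = 0.112) were the 2 members there with an unadjusted p under 0.05, and 1 member, Tnnt2, was called without S7fl/fl day 3 replicate 5 or S7fl/fl day 7 replicate 4. All 10 fitted changes there were above 0 in edgeR and DESeq2, while limma-voom gave values below 0 for Ryr2 (log2 -0.77) and Mb (log2 -0.10) and called 0 members.

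The calls at day 7 against baseline also moved with single libraries. In MyS7KO the count of members called ran from 1 to 7, with 1 called without MyS7KO baseline replicate 2, 2 without MyS7KO baseline replicate 3 or MyS7KO day 7 replicate 3 or 5, 3 without MyS7KO baseline replicate 1 or MyS7KO day 7 replicate 1, and 7 without MyS7KO day 7 replicate 4. Ryr2 was called in each of them. In S7fl/fl the count ran from 3 to 9, with 3 called without S7fl/fl day 7 replicate 3 or 4 and 4 without S7fl/fl baseline replicate 2. Myh6, Tnni3 and Ryr2 were called in each. On the fold scale, the falls in S7fl/fl were over 1.5 times larger without S7fl/fl day 7 replicate 2 for several members besides Ryr2. The log2 changes became -3.78 for Myh6, -2.81 for Myl2, -2.03 for Myl3, -2.87 for Mb, -2.02 for Tnnt2 and -1.44 for Actc1. Without MyS7KO day 7 replicate 4, the MyS7KO falls of Myh6 (log2 -2.57) and Myl2 (-1.85) were also over 1.5 times larger.

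The study's own contrast is that of genotype, asked here for transcripts that the sorted cells themselves are not known to make. No member differed between MyS7KO and S7fl/fl libraries at baseline, day 3 or day 7 by edgeR at an adjusted p under 0.05, where 0.0121, 0.0121 and 0.0181% of all genes were called. DESeq2, limma-voom and the fits of FPKM likewise called 0 members. The groups overlapped for every member at every time, as they did for most genes: 6.2% of all genes tested did not overlap between genotypes at baseline, 0.562% at day 3 and 8.9% at day 7. The median log2 change of the members, MyS7KO against S7fl/fl, was -0.25 at baseline, 0.40 at day 3 and 0.30 at day 7, beside -0.029, -0.002 and -0.007 over all genes, and single values lay between -0.41 and 0.07 at baseline for the 9 genes other than Nppa, with standard errors of 0.38 to 0.59. At day 3 the largest value was that of Ryr2 (log2 0.99 ± 0.77, SE, edgeR adjusted p = 0.982), which was 0.05 without the 3 libraries of minor sex signal over 1%. With standard errors of this size, these libraries do not show that the genotypes are alike.

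Nppa at baseline was the one member with an unadjusted p under 0.05 in a genotype comparison (log2 -2.10 ± 0.90, SE, edgeR adjusted p = 0.999). Without S7fl/fl baseline replicate 1 the log2 change was -0.95 and did not pass either. The fitted log2 change of Nppa between genotypes was 0.95 at day 7 and 0.64 at day 3, against -2.10 at baseline. The difference from baseline was 3.05 ± 1.27 at day 7 and 2.74 ± 1.39 at day 3 (SE, edgeR adjusted p = 0.877 and 0.878), of which the day 7 difference had an unadjusted p under 0.05. No gene of 16545 was called by edgeR in any of the 3 tests of a change in genotype effect over time, where 741, 862 and 1726 had an unadjusted p under 0.05; DESeq2 called 3 at day 7 against baseline and 6 at day 7 against day 3, with no member among them.

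The mix of members differed between infarcted and baseline hearts as well as their sum. Myh6 made up 9.98 ± 2.74% of the counts of the 10 genes in the 17 libraries after infarction (SD), against 20.4 ± 5.25% in the 6 baseline libraries (SD). Ryr2 made up 1.11 ± 0.66%, against 4.51 ± 1.29% at baseline (SD, n = 17 and n = 6). Actc1 made up 14.9 ± 1.97% after infarction, against 9.33 ± 1.25% at baseline (SD, n = 17 and n = 6), and its ranges did not overlap: 11.9 to 18.4% after infarction, and 7.93 to 11.3% at baseline. Tnnt2 made up 22.7 ± 4.15%, against 16.9 ± 2.09% at baseline (SD, n = 17 and n = 6). For Myh6 and Ryr2 the ranges overlapped, at 5.97 to 15.4% and 0 to 2.51% after infarction, and 14.3 to 27% and 2.33 to 5.98% at baseline. Tnni3, Myl2 and Mb had shares that overlapped widely, at 13.4 ± 3.19, 13.9 ± 3.05 and 8.32 ± 2.31% after infarction, and 14.8 ± 3.84, 13.8 ± 1.97 and 8.01 ± 0.817% at baseline (SD, n = 17 and n = 6). Shares add to a whole, so a fall in one raises others, and they were not tested.

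**Figure D4:**
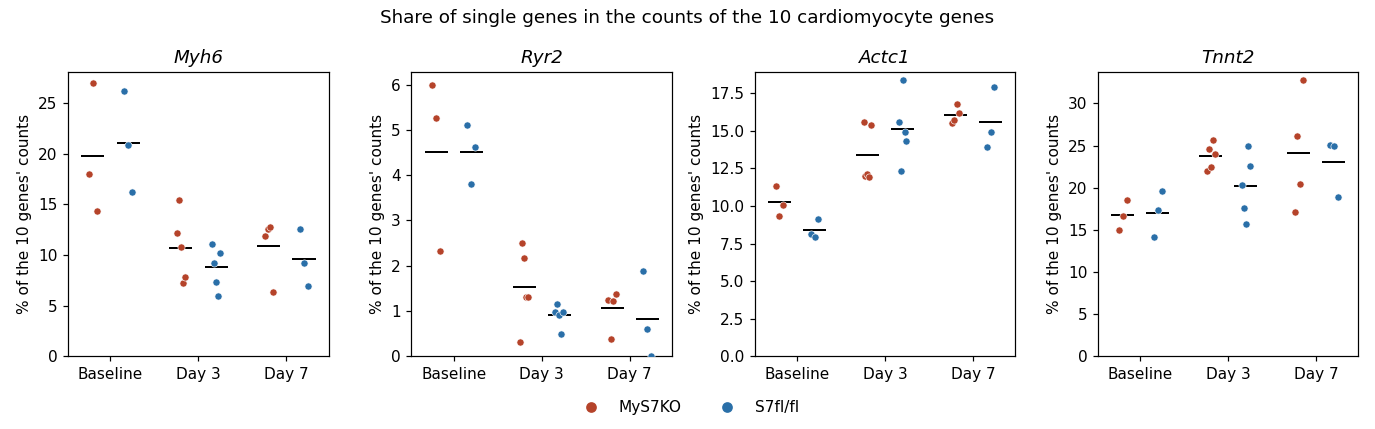
Points give the percentage of the 10 genes' counts that fell on Myh6, Ryr2, Actc1 or Tnnt2 in each library, with a bar at the group mean, on axes from 0. Myh6 and Ryr2 take smaller shares after infarction, and Actc1 takes 11.9% or more in every library after infarction and 11.3% or less in every baseline library.

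Within groups the members moved together from library to library. After subtracting group means, 45 pairs of members had Pearson's r of log2 CPM between 0.141 and 0.927 over 23 libraries (median 0.672), with the highest for Actc1 and Myl2. Pairs with Ttn reached 0.56 at most and so did pairs with Nppa, while the 28 pairs of the other 8 members lay at 0.595 to 0.927. These values describe libraries that share depth and scaling, and carry no p. Among genes outside the 10, those most like their summed level within groups were Tcim (r = 0.929 over 23 libraries), Fam171a1 (0.909), Afap1l1 (0.908), Klf15 (0.907), Ly6c1 (0.904), Cyp4b1 (0.899), Arhgef15 (0.897) and Lims2 (0.894). Ly6c1 is a surface antigen of mouse endothelium and monocytes, Klf15 a transcription factor of muscle metabolism and Lims2 a focal adhesion protein.

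Markers of other heart cells moved with the cardiomyocyte genes. The 8 endothelial markers, led by the fatty acid carrier Fabp4 and the adhesion molecule Pecam1, had a median r of 0.858 with the members' sum within groups (0.77 to 0.904), mural markers 0.796 and erythroid markers 0.782, against -0.168 for macrophage markers and 0.00531 over all genes tested. All 8 endothelial markers fell in all 4 comparisons of an infarct day with baseline, with median log2 changes of -1.46 in MyS7KO and -1.89 in S7fl/fl at day 3 and -1.46 and -2.59 at day 7. Their summed level was 524 to 908 CPM in MyS7KO and 371 to 872 CPM in S7fl/fl at day 3, and 218 to 1410 CPM in MyS7KO and 289 to 627 CPM in S7fl/fl at day 7, against 1320 to 2610 CPM in MyS7KO and 1950 to 2730 CPM in S7fl/fl at baseline. No endothelial marker was at 0 in any library. For every 100 CPM of endothelial markers the 10 cardiomyocyte genes had 3.4 ± 0.383 CPM in MyS7KO and 3.03 ± 0.459 CPM in S7fl/fl at day 3 (SD, n = 5 each), 5.83 ± 1.23 (SD, n = 4) and 7.12 ± 2.23 CPM (SD, n = 3) at day 7, and 4.58 ± 1.63 and 4.38 ± 0.996 CPM at baseline (SD, n = 3 each). The mean of this ratio was thus below baseline at day 3 and above it at day 7. Against mural markers the mean ratio was above baseline at both days, with 13.2 ± 3.87 CPM per 100 CPM in MyS7KO and 11 ± 2.4 CPM in S7fl/fl at day 3 (SD, n = 5 each), 16.5 ± 5.68 (SD, n = 4) and 23.2 ± 1.44 CPM (SD, n = 3) at day 7, and 6.55 ± 1.48 and 6.79 ± 1.54 CPM at baseline (SD, n = 3 each). Against fibroblast markers it was 3.4 ± 1.2 and 3.31 ± 1.58 CPM at day 3 (SD, n = 5 each), 1.19 ± 0.486 (SD, n = 4) and 1.44 ± 0.428 CPM (SD, n = 3) at day 7, and 11.6 ± 4.43 and 12 ± 4.08 CPM at baseline (SD, n = 3 each), for MyS7KO and S7fl/fl. The part of these cells in the result was not tested.

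**Figure D5:**
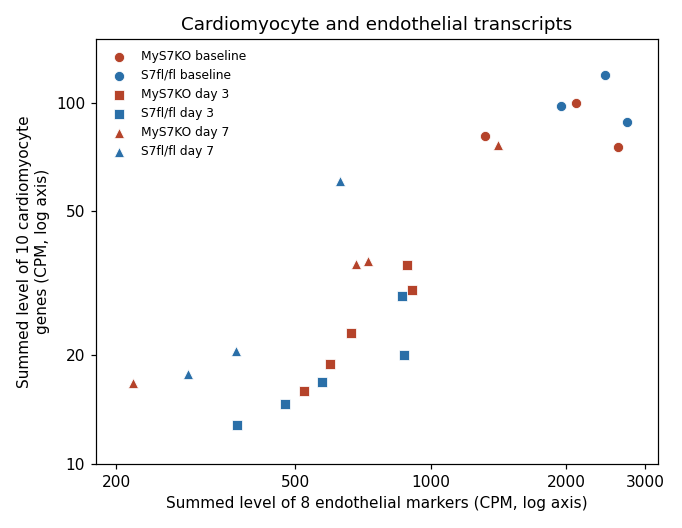
Each point is 1 library, with the summed level of 8 endothelial markers across and that of the 10 cardiomyocyte genes upward, both in CPM on log axes. Libraries after infarction lie below the baseline libraries in both, except MyS7KO day 7 replicate 4 (76.3 against 1410 CPM), which lies beside them. Among libraries after infarction the ratio of these sums varies. It is 9.67 CPM per 100 CPM of endothelial markers in S7fl/fl day 7 replicate 2 and 2.29 in S7fl/fl day 3 replicate 1.

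Mural cell markers, led by the smooth muscle myosin Myh11 and the pericyte gene Rgs5, fell in 7 of 7 at day 3 in both genotypes, and at day 7 in 5 of 7 in MyS7KO and 7 of 7 in S7fl/fl. Their sums were 140 to 228 CPM in MyS7KO and 119 to 205 CPM in S7fl/fl at day 3, and 67.2 to 523 and 81.9 to 249 CPM at day 7, against 992 to 1600 and 1180 to 1730 CPM at baseline. The 13 mitochondrially encoded genes, which heart muscle expresses richly and every cell also uses, fell in 11 and 12 of 13 at day 3 and 10 and 12 of 13 at day 7 in MyS7KO and S7fl/fl. Erythroid markers, led by the globin genes Hbb-bs and Hba-a1, fell in 5 of 5 tested at day 3 in both genotypes. At day 7 they summed to 200 CPM in S7fl/fl replicate 2, the S7fl/fl day 7 library highest in the 10 genes, against 1.72 to 15.6 CPM in the other day 7 libraries. Fibroblast markers went both ways at day 7: 4 of 8 rose and 2 fell in MyS7KO, and 4 rose and 3 fell in S7fl/fl. Among them the collagen gene Col3a1 averaged 1240 ± 569 CPM in MyS7KO at day 7 (SD, n = 4), against 161 ± 60.6 CPM at baseline (SD, n = 3). At day 3, 4 of 8 fibroblast markers fell in each genotype and 2 rose in MyS7KO. Macrophage markers went both ways at day 3 (3 of 10 higher and 3 lower in MyS7KO, 3 higher and 4 lower in S7fl/fl), and at day 7 they rose in 6 of 10 in MyS7KO, where 22.2% of all genes were called higher, and in 7 of 10 in S7fl/fl, where 24.8% were. Of all genes at day 3, 30.7% were called higher and 35.2% lower in MyS7KO, and 29.9% and 34.1% in S7fl/fl. The macrophage counts at day 3 lie near these shares. At day 7, 21.8% of all genes in MyS7KO and 25.4% in S7fl/fl were called lower.

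Markers of other leukocytes and of platelets did not all move alike. T and NK cell markers, led by Gzma and Klrb1c, fell in 4 of 4 tested at day 3 in both genotypes, and summed to 4.47 to 9.72 CPM in MyS7KO and 5.24 to 9.07 CPM in S7fl/fl at day 3, against 22.9 to 36.5 and 30.3 to 64.8 CPM at baseline. B cell markers, led by Cd79b and Cd79a, fell in 1 of 4 in MyS7KO and 4 of 4 in S7fl/fl at day 3. Neutrophil markers, led by Csf3r and S100a9, fell in 5 of 7 tested in MyS7KO and 3 of 7 in S7fl/fl at day 3, and Ly6g, the antigen of the sort, was at 0 in 18 of 23 libraries. Platelet markers, led by Pf4 and Ppbp, gave 2 higher and 1 lower of 4 tested in each genotype. At day 3 35.2% of all genes in MyS7KO and 34.1% in S7fl/fl were called lower. Their part in the result was not tested.

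Another 57 cardiomyocyte genes, grouped by role, gave 48 that passed the low-count filter. At day 3, 31 fell and 3 rose in MyS7KO, and 37 fell and 2 rose in S7fl/fl. At day 7, 17 fell and 4 rose in MyS7KO, and 26 fell and 4 rose in S7fl/fl, beside the shares of all genes given above for these comparisons. None was called between genotypes by edgeR at any time, where unadjusted p-values under 0.05 were held by 0 at baseline, 2 at day 3 (Smpx and Cox8b) and 3 at day 7 (Jph2, Cacna1c and Gata4).

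Among other thick filament and M-band genes 5 of 6 fell at day 3 in each genotype, and at day 7 3 fell in MyS7KO and 4 in S7fl/fl, with 1 higher in each. The one higher was Mybpc3, cardiac myosin-binding protein C, named after its values were seen. It averaged 19 ± 7.04 CPM in MyS7KO (SD, n = 4) and 21.2 ± 6.03 CPM in S7fl/fl (SD, n = 3) at day 7, against 11.5 ± 1.65 and 11.2 ± 2.09 CPM at baseline (SD, n = 3 each; log2 0.72 and 0.92, edgeR adjusted p = 0.0219 and 0.0056). Myom1, which links myosin filaments at the M-band, averaged 6.77 ± 1.19 CPM in MyS7KO at day 3 (SD, n = 5), against 55.1 ± 10.4 CPM at baseline (SD, n = 3), and 6.04 ± 0.909 CPM in S7fl/fl (SD, n = 5), against 62.2 ± 8.41 CPM (SD, n = 3; log2 -3.02 ± 0.17 and -3.36 ± 0.17, SE, edgeR adjusted p = 1.45e-12 and 3.6e-13). It was higher at day 7 than at day 3 in both genotypes (log2 1.29 and 1.17, edgeR adjusted p = 1.29e-06 and 3.14e-05). Myl4, the atrial essential light chain, averaged 0.399 ± 0.133 CPM in MyS7KO and 0.592 ± 0.272 CPM in S7fl/fl at day 3 (SD, n = 5 each), against 2.74 ± 1.5 and 4.38 ± 2.11 CPM at baseline (SD, n = 3 each). Of other thin filament genes 2 of 5 were lower in MyS7KO, near the 35.2% of all genes, and 4 of 5 in S7fl/fl, where 34.1% of all genes were, at day 3. Tpm1, a tropomyosin that many cell types make, fell by 0.58 and 0.88 on the log2 scale (edgeR adjusted p = 0.00335 and 5.63e-05).

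Z-disc and costamere genes fell in 9 of 12 in MyS7KO and 10 of 12 in S7fl/fl at day 3. Ldb3, a Z-disc adaptor, averaged 0.738 ± 0.24 CPM in MyS7KO at day 3 (SD, n = 5), against 9.27 ± 3.91 CPM at baseline (SD, n = 3), and 0.644 ± 0.318 CPM in S7fl/fl (SD, n = 5), against 12 ± 2.97 CPM (SD, n = 3). Nebl, which encodes nebulette, averaged 1.07 ± 0.0133 CPM in MyS7KO and 0.88 ± 0.264 CPM in S7fl/fl at day 3 (SD, n = 5 each), against 11.1 ± 4.33 and 10.2 ± 0.667 CPM at baseline (SD, n = 3 each). Both fell at day 7 too, by at least 2.96 on the log2 scale in each genotype. Xirp2 and Ankrd1 of this list, a repeat protein of intercalated discs and a stress-responsive ankyrin protein, went against it and were chosen after their values were seen. Xirp2 rose at both days in both genotypes (log2 1.85 and 1.19 at day 3, 2.44 and 1.64 at day 7 in MyS7KO and S7fl/fl, edgeR adjusted p = 0.00224, 0.0337, 0.00046 and 0.0107). Ankrd1 rose at day 7 (3.38-fold and 2.83-fold, edgeR adjusted p = 0.00436 and 0.013).

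Calcium handling genes fell in 5 of 8 in MyS7KO and 6 of 8 in S7fl/fl at day 3, with the same counts at day 7. Jph2, which joins the cell membrane to the sarcoplasmic reticulum, averaged 2.53 ± 0.741 CPM in S7fl/fl at day 3 (SD, n = 5), against 29.9 ± 8.31 CPM at baseline (SD, n = 3; log2 -3.55 ± 0.37, SE, edgeR adjusted p = 7.63e-08). In S7fl/fl baseline libraries Jph2 and Myom1 averaged more than Myh6, the highest member there at 21.5 CPM. Which cells the transcripts of these further genes came from was not tested. Hrc, a calcium-binding protein of the reticulum, fell by 2.49 in MyS7KO and 2.83 in S7fl/fl on the log2 scale at day 3 (edgeR adjusted p = 6.1e-07 and 7.8e-08). Cacna1c, the pore of the L-type calcium channel, averaged 2.01 ± 0.527 CPM in MyS7KO at day 3 (SD, n = 5), against 15.2 ± 5.58 CPM at baseline (SD, n = 3). Pln, the brake on the calcium pump, averaged 0.877 ± 0.211 CPM in MyS7KO and 1 ± 0.524 CPM in S7fl/fl at day 3 (SD, n = 5 each), against 7.09 ± 1.28 and 10.8 ± 2.86 CPM at baseline (SD, n = 3 each). The pump gene Atp2a2, which other cell types also express, rose at day 3 in both genotypes (log2 0.56 and 0.57, edgeR adjusted p = 0.000649 and 0.000556) and averaged 483 ± 74.8 CPM in MyS7KO at day 3 (SD, n = 5), against 328 ± 63 CPM at baseline (SD, n = 3). Slc8a1, the sodium-calcium exchanger, rose at day 7 (log2 0.47 and 0.57, edgeR adjusted p = 0.0286 and 0.0122). Both were named after their values were seen.

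Of energy supply genes 3 of 8 were lower in MyS7KO, near the 35.2% of all genes, and 5 of 8 in S7fl/fl, where 34.1% of all genes were, at day 3. At day 7 they were 1 and 3 of 8. Eno3, a muscle enolase, fell by 0.49 and 0.83 on the log2 scale (edgeR adjusted p = 0.00604 and 3.66e-05). Corin, the protease that processes natriuretic peptide precursors, averaged 1.02 ± 0.732 CPM in MyS7KO and 0.752 ± 0.222 CPM in S7fl/fl at day 3 (SD, n = 5 each), against 5.88 ± 2.1 and 7.58 ± 1.73 CPM at baseline (SD, n = 3 each). It fell at both days in both genotypes. Of 3 ion channel and gap junction genes tested Gja5 fell at both days in both genotypes, and Kcnj2 did not pass at day 3 (log2 -0.13 and -0.06, edgeR adjusted p = 0.524 and 0.779). Gja5 encodes connexin 40, which endothelium of arteries also makes. All 5 cardiac transcription factors tested fell at day 3 in both genotypes, Gata6 by 2.15 and 2.66 and Gata4 by 1.79 and 2.06 on the log2 scale (edgeR adjusted p = 7.08e-05 and 6.62e-06 for Gata6, 0.000129 and 2.18e-05 for Gata4). At day 7, 0 of these 5 in MyS7KO and 4 of 5 in S7fl/fl passed, and that difference was not itself called for any of them.

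Of 6 atrial genes 4 passed the low-count filter, and all 4 fell at day 3 in both genotypes, with 3 and 4 of them lower at day 7 in MyS7KO and S7fl/fl. The 6 summed to 9.1 ± 2.26 CPM in MyS7KO and 6.53 ± 3.41 CPM in S7fl/fl at day 3 (SD, n = 5 each), and 9.36 ± 6.07 (SD, n = 4) and 4.87 ± 2.53 CPM (SD, n = 3) at day 7, against 36.5 ± 13.3 and 49.2 ± 11.8 CPM at baseline (SD, n = 3 each). Most of these sums was Gja5, which arterial endothelium also makes. It averaged 14.5 CPM over the 23 libraries, against 1.41 CPM for Myl4. The sums therefore do not stand for atrial muscle alone. Myl4 was at 0 in no library. Myl7, the atrial regulatory light chain, held 21, 57 and 18 counts in MyS7KO and 99, 46 and 22 counts in S7fl/fl libraries at baseline. At day 3 it held 0 to 2 counts in MyS7KO and 0 to 3 counts in S7fl/fl libraries, and at day 7 it was at 0 in all 7 libraries. Sln, the atrial calcium pump regulator sarcolipin, held up to 6 counts in MyS7KO and 6 to 31 counts in S7fl/fl libraries at baseline and was at 0 in all 17 libraries after infarction. A count of 0 allows up to 3 counts in a library. The ventricular members Myl2 and Myl3 were present in every one of those 17 libraries, with 15 counts or more. Skeletal muscle isoforms (8 genes, such as fast myosin heavy chains) summed to 4.79 to 8.34 CPM over day 3 libraries and 5.2 to 7.79 CPM over baseline libraries.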

How the data were processed

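Counts per gene and FPKM values (fragments scaled by annotated gene length and library size) were deposited by the authors for 54532 genes and 23 libraries. TopHat2 2.0.9, HTSeq 0.6.1 and Cufflinks 2.1.1 and the builds mm10 and GRCm38.p6 are named in the submitters' processing notes; strandedness is not given in the sources used here.

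The deposited counts were fitted with edgeR 4.0.16 (quasi-likelihood test, TMM scaling, filterByExpr over 6 groups, robust, 1 coefficient per group) in R 4.3.3. Benjamini-Hochberg adjustment ran over 16545 genes, and an adjusted p under 0.05 counted as a call. The script was tested on simulated data. Other settings tried were no filter on low counts (33227 genes), RLE scaling, DESeq2 1.42.0, limma-voom (limma 3.58.1), fits of the groups compared alone, fits of log2(FPKM + 1) and log2(FPKM + 0.1) on the authors' FPKM, a replicate block and each library left out. Leaving out 3 libraries of minor sex signal over 1% was chosen after seeing the data.

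The 10 genes and all lists were chosen with earlier results of these data known. The text names these 10 in every comparison, up to 2 further cardiomyocyte genes per role and comparison with the lowest p, the 8 most similar genes (predicted genes left out), and the 2 most abundant genes of a marker list; others are said to be chosen after their values were seen. Within-group correlations used log2 CPM with a prior count of 2. Gene names are shared by 203 gene IDs. Libraries of 1 group differed by more than sampling noise in all 35 pairs (chi-square per degree of freedom 8.79 to 52.5).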

Additional observations from a re-analysis of the deposited data

How the results depend on the processing

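No called value changed sign. At day 7 against baseline in MyS7KO, 5 members were called, against 2 with no low-count filter, 3 in the fit of the groups compared alone, 1 with the replicate block, and 1 to 7 with each library left out. In S7fl/fl 8 were called, against 4 with no filter, 6 with the replicate block (without Myl3 and Nppa) and 3 to 9 with each library left out. Limma-voom called 6 in MyS7KO and 9 in S7fl/fl, losing Tnni3 and Nppa and gaining Myl2 and Ttn, and Actc1 and Tnnt2, and at day 7 against day 3 in MyS7KO it called Tnnt2 in place of Nppa. Fits of log2(FPKM + 1) gave smaller changes for genes of low FPKM, and log2(FPKM + 1) with the filter ended the 3 Ttn calls. At day 7 against day 3 in MyS7KO, 3 were called, against 0 with no filter, in the fits of FPKM, with the replicate block, in the fit of the groups compared alone and without the 3 libraries of minor sex signal, and 0 to 3 with each library left out; in S7fl/fl 0 were called, and 0 to 1 with each library left out. At day 3 against baseline, 8 to 9 and 10 to 10 were called in MyS7KO and S7fl/fl with each library left out. Genotype comparisons and tests of a change in genotype effect called 0 members throughout. The main fit did not pair libraries by replicate number. Residuals of same-numbered libraries correlated at -0.298 to 0.45, over 0.1 in 6 of 10 pairs. They were not compared with pairs of unlike number, so these values do not settle whether the numbers mark pairs. Over all genes, the genotype count at day 7 was 3 by edgeR, 51 by DESeq2, 13 by limma-voom, 8 with log2(FPKM + 1), 5 with the replicate block or the groups compared alone, and 2 to 59 with each library left out (59 without MyS7KO day 7 replicate 3). At day 3 it was 2, against 5 by DESeq2 and 4 by limma-voom, and at baseline 2, against 39 with FPKM and no filter, 6 with log2(FPKM + 1), 1 with the replicate block and 0 in the groups compared alone. Calls over all genes at day 7 against day 3 in S7fl/fl fell below the 3587 by over 1.5 times without S7fl/fl day 7 replicate 2. Tests of a change in genotype effect called 0 genes, against up to 15 with FPKM and no filter. Low counts limit Ryr2, Nppa and the atrial genes.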
